A study of Mus musculus with 6 samples.

Results

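The genes described here were the FOS family genes Fos, Fosl1 and Fosl2, the JUN family genes Jun, Junb and Jund, the zinc-finger factor genes Egr1 and Egr2, and the stress-response genes Atf3 and Ier3. They were chosen by symbol as AP-1 and immediate early genes, and all 10 were found among the 46095 gene symbols of the count table. The RNA came from BV2 cells, a mouse microglial line that was immortalized with a retrovirus carrying the oncogenes v-raf and v-myc, which the cells of both groups share. The CON group was untreated, and the sTREM-1 group was incubated with recombinant sTREM-1, the soluble form of the receptor TREM-1, at 1 μg/mL for 6 h. Each group had 3 libraries, grown per the labels in wells of a multi-well plate. Nothing in the labels places the wells in separate cultures, and the p-values below therefore measure the spread between these libraries, which may be technical.

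AP-1 is a dimer of basic leucine-zipper proteins that binds DNA at short palindromic elements. FOS proteins bind DNA only with a partner, most often a JUN protein, while JUN proteins can also pair with each other or with ATF proteins. Immediate early genes are transcribed within minutes of a stimulus from factors already present in the cell, and many of their RNAs are short-lived. With sTREM-1 only 6 h was sampled, so any changes at earlier times were not measured. In microglia and other macrophages AP-1 shares enhancers with the myeloid factor PU.1, and its subunits respond to MAP kinase signals.

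Promoter stretches of 4 of these genes are given with a few known promoter elements marked. Elements that were not searched for, or that lie outside these stretches, are not shown. GC boxes and CCAAT boxes were searched for but are left in small letters. Fos is shown because its RNA changed most among the genes described here, Jun and Junb because their RNA moved the other way, and Atf3 because it had the highest level. Each is the 250 bases before the RefSeq start on the gene's strand in GRCm38.p6. Capitals mark TGACG, the core of the cyclic AMP response element, on either strand, the TATA box TATAAA, and in Jun the element TGACATCA, a variant of the AP-1 site TGACTCA. In Atf3 the capitals mark TGACGTAA read on the opposite strand, which holds the TGACG core.
Fos, chr12:85473640-85473889, plus strand: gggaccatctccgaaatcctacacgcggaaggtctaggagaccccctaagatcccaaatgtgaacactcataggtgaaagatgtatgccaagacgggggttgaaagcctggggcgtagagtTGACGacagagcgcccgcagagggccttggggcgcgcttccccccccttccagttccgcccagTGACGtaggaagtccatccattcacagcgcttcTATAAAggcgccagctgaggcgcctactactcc
Jun, chr4:95052223-95052472, minus strand: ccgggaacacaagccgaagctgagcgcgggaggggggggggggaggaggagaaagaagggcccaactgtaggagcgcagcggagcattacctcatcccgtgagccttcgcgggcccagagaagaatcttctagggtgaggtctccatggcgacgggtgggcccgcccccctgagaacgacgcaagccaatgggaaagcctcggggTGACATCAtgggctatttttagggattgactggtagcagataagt
Junb, chr8:84978749-84978998, minus strand: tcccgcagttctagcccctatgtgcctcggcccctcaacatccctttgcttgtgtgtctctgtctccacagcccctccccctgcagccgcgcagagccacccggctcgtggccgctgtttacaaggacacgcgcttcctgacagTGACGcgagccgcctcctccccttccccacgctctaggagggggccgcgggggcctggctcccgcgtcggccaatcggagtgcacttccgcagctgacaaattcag
Atf3, chr1:191183334-191183583, minus strand: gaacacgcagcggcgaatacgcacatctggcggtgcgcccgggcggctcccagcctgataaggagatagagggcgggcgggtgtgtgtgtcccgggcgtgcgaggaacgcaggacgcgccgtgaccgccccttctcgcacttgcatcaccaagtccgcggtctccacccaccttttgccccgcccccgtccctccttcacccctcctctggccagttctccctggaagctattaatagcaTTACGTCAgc
The Fos stretch held TGACG at 129 to 125 and at 66 to 62 bases before the start, and TATAAA at 33 to 28 bases. In Junb, TGACG lay 106 to 102 bases before the start, and in Atf3 the TGACGTAA element lay 10 to 3 bases before it. In Jun, TGACATCA lay 45 to 38 bases before the start, with the CCAAT box at 65 to 61 bases, and Junb held a CCAAT box at 36 to 32 bases. The GC box GGGCGG, read on either strand, lay at 74 to 69 bases in Fos, at 89 to 84 bases in Jun and at several positions in Atf3. Among all 32851 RefSeq promoter stretches of this length, TGACG was present on either strand in 17.8%, TATAAA in 12.4%, CCAAT in 33.8%, TGACATCA in 2.93% and TGACGTAA in 0.447%. The GC box was present in 32.7%. The exact AP-1 site TGACTCA, present in 4.46% of stretches, and the CArG box, the element of serum response factor, present in 1.47%, had no match in these 4 stretches, which says only that these letters are not in these windows. The full element TGACGTCA, which contains the TGACG core, was present in 1.55% and in none of the 4. The EGR site GCGTGGGCG, present in 0.536%, had no match in the 4 either. RefSeq stretches were found for 8 of the 10 genes.

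The libraries held between 40070633 and 45877107 counts. Marker genes of macrophages and microglia summed to between 2645 and 2679 CPM in the CON group and between 2908 and 2981 CPM in the sTREM-1 group, where CPM is the count per 1000000 counts of a library after TMM scaling. Much of the difference lay in Csf1r, with a mean of 521 CPM in the CON group and 753 CPM after sTREM-1. The means of Cd68, Tyrobp and Tmem119 were lower after sTREM-1. Of these 12 markers, Aif1, which encodes IBA-1, was listed at 0 in every library. Cx3cr1, P2ry12 and Tmem119 were below 2 CPM in both group means. Marker lists of neurons, astrocytes and fibroblasts each summed to at most 1.26 CPM in any library, and that of oligodendrocytes ran from 5.63 to 7.94 CPM. Of the 14120 genes with enough counts to be tested, 30.5% were called, meaning that the quasi-likelihood test of edgeR gave a p-value under 0.05 once adjusted over all of them by the Benjamini-Hochberg method. Of the 11 tested macrophage and microglia markers, 4 were called higher and 0 lower, a share of 36.4%. In bulk RNA, fewer cells that express a gene and less RNA per cell cannot be told apart.

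Compared with the CON group, 6 of the 9 tested AP-1 and immediate early genes were called, 3 higher and 3 lower, against 16.5% of all tested genes called higher and 14.1% called lower. The genes were chosen with earlier results of these data known, so the counts are a description and not a test of the set. Fos, Fosl2 and Jund were lower after sTREM-1, and Jun, Junb and Ier3 were higher. Fosl1, Egr2 and Atf3 did not pass the test, and Egr1 had no counts. The groups did not overlap in CPM for the same 6 genes that were called, against 40.7% of all tested genes. On the log2 scale the 9 changes had a median of -0.055, beside -0.0017 over all genes tested. The changes were small, and Fos was the only one of the 9 that passed the test with at least a 1.2-fold change, a criterion that 10.7% of all tested genes met.

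**Figure D1:**
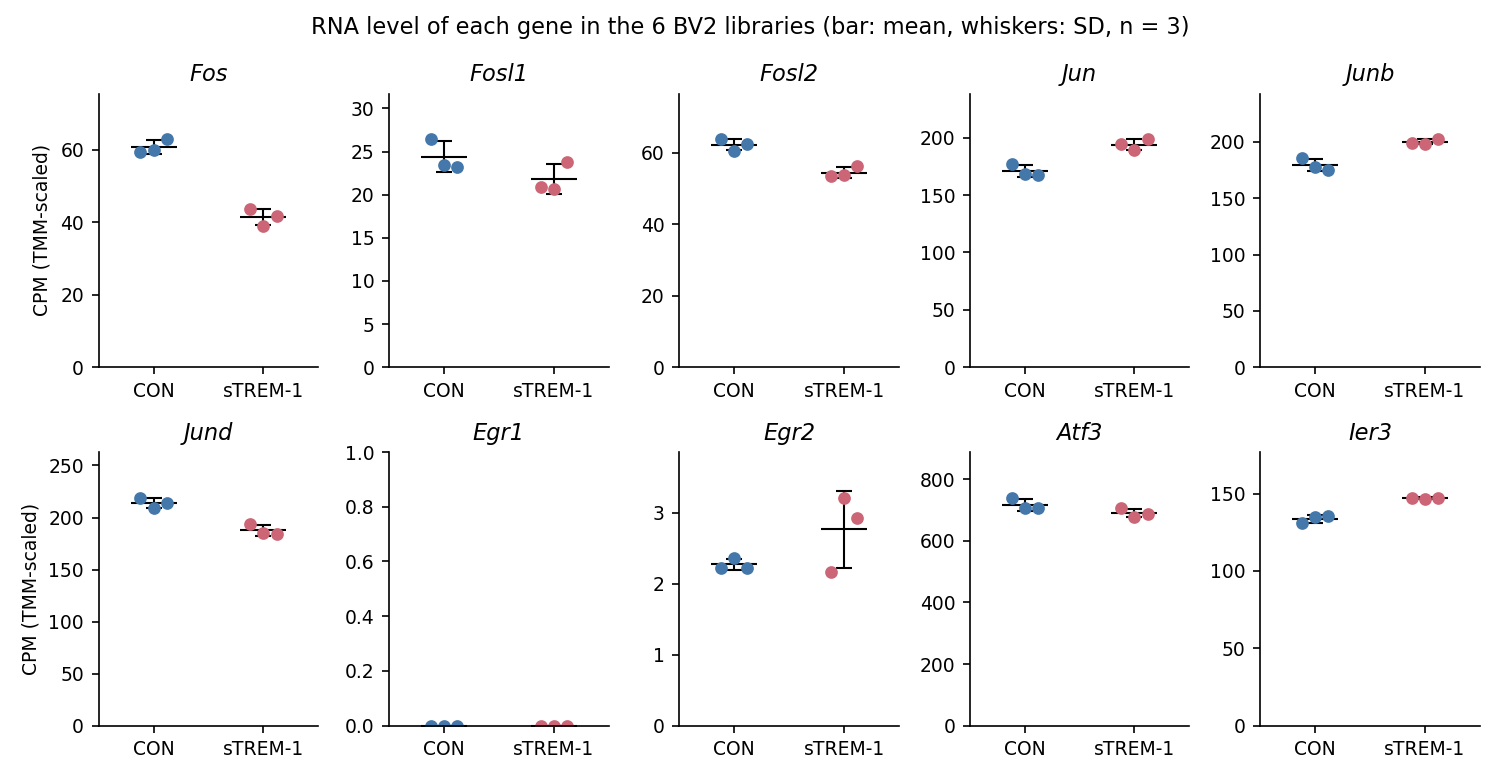
TMM-scaled CPM of the 10 genes in the 3 CON and 3 sTREM-1 libraries, each point a library, with the mean as a horizontal bar and the SD as whiskers; each panel has its own scale from 0. The groups are apart for Fos, Fosl2, Jun, Junb, Jund and Ier3, overlap for Fosl1, Egr2 and Atf3, and Egr1 lies at 0 in all 6 libraries.

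Among the FOS family genes, Fos had 59.3, 60.0 and 62.9 CPM in CON replicates 1, 2 and 3, and 43.6, 39.1 and 41.6 CPM in sTREM-1 replicates 1, 2 and 3. All 3 sTREM-1 libraries lay well below the lowest CON library. Fos, the classic immediate early gene and a partner of JUN proteins, fell by 31.8%, a log2 fold change of -0.55 (standard error 0.05, 95% confidence interval -0.64 to -0.46, edgeR adjusted p = 5.5e-11). By size, this fall ranked 594th from the lowest among the 14120 tested genes. The 3 raw counts per group ran from 2430 to 2568 and from 1652 to 1991, so that counting error was small beside the difference.

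Fosl2, which encodes FRA-2, had 63.9, 60.7 and 62.4 CPM in the CON libraries and 53.6, 53.7 and 56.2 CPM after sTREM-1. The groups did not overlap, and the change was smaller than that of Fos. Its log2 fold change was -0.19 (standard error 0.04, 95% confidence interval -0.28 to -0.11, edgeR adjusted p = 0.00039). Fosl1, which encodes FRA-1, had 26.4, 23.4 and 23.3 CPM in the CON libraries and 20.9, 20.6 and 23.8 CPM after sTREM-1. Here sTREM-1 replicate 3 lay above CON replicates 2 and 3, and the groups overlapped. The log2 fold change of Fosl1 was -0.16 (95% confidence interval -0.30 to -0.02, edgeR adjusted p = 0.076), and without sTREM-1 replicate 3 it was -0.23 with an adjusted p of 0.018, in a range of 0.018 to 0.404 over 13 alternative fits. Fosb, the remaining FOS family gene, was near the lower limit of the test, with 1.14 ± 0.247 CPM in the CON group and 0.938 ± 0.207 CPM after sTREM-1 (SD, n = 3 each), and was not called.

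Among the JUN family genes, Jun and Junb were higher and Jund was lower. Jun, the founding JUN protein and a direct target of its own dimers, had 177, 169 and 168 CPM in the CON libraries and 194, 189 and 199 CPM after sTREM-1. The lowest sTREM-1 library lay above the highest CON library. Jun rose by 13.3%, a log2 fold change of 0.18 (standard error 0.03, 95% confidence interval 0.12 to 0.24, edgeR adjusted p = 1.5e-05). Junb, whose protein forms weaker dimers than JUN and can oppose it, had 186, 177 and 175 CPM in the CON libraries and 199.5, 198 and 203 CPM after sTREM-1. The CON libraries were more spread than the sTREM-1 libraries, and the groups did not overlap. Its log2 fold change was 0.16 (standard error 0.03, 95% confidence interval 0.10 to 0.21, edgeR adjusted p = 5.9e-05).

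Jund, the JUN family gene that is expressed steadily in many resting cells, had 219, 209.5 and 213 CPM in the CON libraries and 194, 185 and 184 CPM after sTREM-1. Each sTREM-1 library was below each CON library. Jund fell by 12.3%, a log2 fold change of -0.19 (standard error 0.03, 95% confidence interval -0.25 to -0.13, edgeR adjusted p = 4.0e-06). Genes on the opposite strand overlap exons of Fosl1, Jun, Junb and Jund in the GENCODE annotation, and whether the counting used the strand is not given in the sources used here. Of the 3 of these neighbours in the count table, Ccdc85b beside Fosl1 was at 7.75 CPM in the CON group, Junos beside Jun at 5.73 CPM and Prdx2 beside Junb at 116 CPM. Their log2 fold changes were 0.06, -0.06 and 0.03, and none of the 3 was called.

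**Figure D2:**
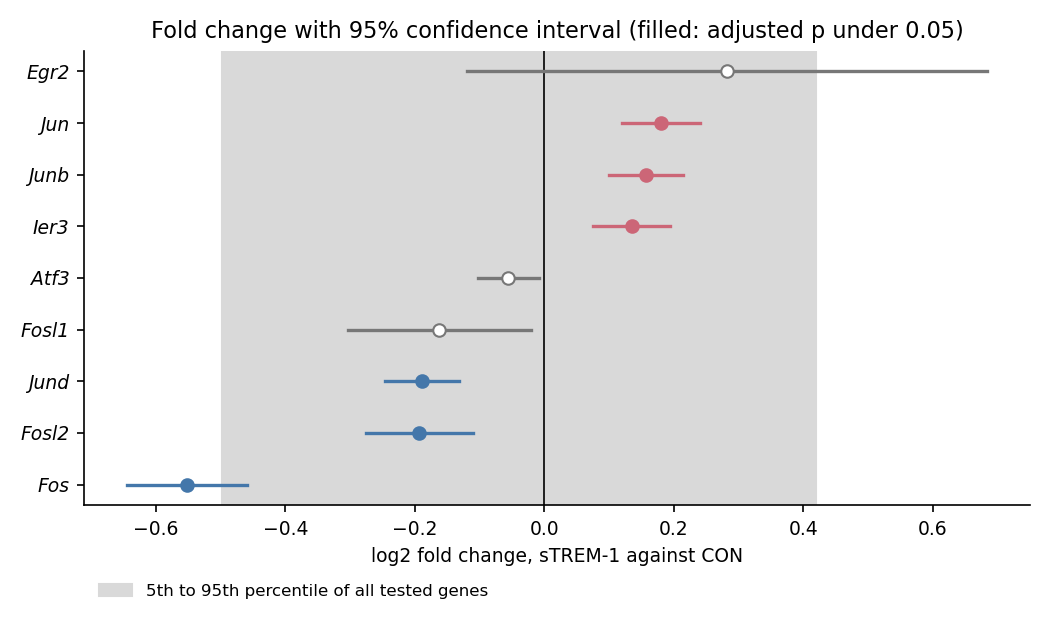
Log2 fold change of the 9 tested genes, sTREM-1 against CON, with the 95% confidence interval of edgeR's fit as a line; filled points are called at an adjusted p-value under 0.05, and the shaded band spans the 5th to 95th percentile of all tested genes, from -0.50 to 0.42. The point for Fos is outside the band, the other called genes lie between -0.19 and 0.18, and the interval of Egr2 is the widest.

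The levels of different genes were compared as CPM per kilobase of exon. Summed over Jun, Junb and Jund, JUN family RNA was 260.0 ± 6.63 CPM per kilobase in the CON group and 260.3 ± 3.65 after sTREM-1 (SD, n = 3 each; two-sided exact permutation p = 0.9). Not divided by length, the sum was 565 ± 15.0 CPM and 582 ± 8.18 CPM (SD, n = 3 each; two-sided exact permutation p = 0.2), and the groups overlapped. The composition per kilobase differed between the groups. Jund made up 49.1%, 49.1% and 49.8% of JUN family RNA in the CON libraries and 44.0%, 43.3% and 42.3% after sTREM-1. Jun made up 20.6% ± 0.146 in the CON group and 23.4% ± 0.463 after sTREM-1, and Junb 30.0% ± 0.280 and 33.4% ± 0.466 (SD, n = 3 each). For each of the 3 shares the groups did not overlap (two-sided exact permutation p = 0.1, which is the lowest value reachable with groups of 3).

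FOS family RNA, summed over Fos, Fosb, Fosl1 and Fosl2, was 44.4 ± 0.852 CPM per kilobase in the CON group and 34.1 ± 1.49 after sTREM-1 (SD, n = 3 each; two-sided exact permutation p = 0.1, the lowest reachable). Fos itself made up 58.1% ± 1.83 of this RNA in the CON group and 51.6% ± 1.92 after sTREM-1 (SD, n = 3 each), and the highest sTREM-1 library at 53.7% lay below the lowest CON library at 56.1%. The shares of Fosl1 and Fosl2 were higher after sTREM-1, at 31.4% ± 1.64 against 27.0% ± 1.75 and at 16.5% ± 0.511 against 14.5% ± 0.157 (SD, n = 3 each). These larger shares came with lower mean RNA of both genes beside a larger fall of Fos, at log2 fold changes of -0.16, -0.19 and -0.55. The sizes of the share differences depended on exon length. From CPM not divided by length, the Fosl1 share was higher by 1.96 in place of 4.44 percentage points. The Fosl2 share was then higher by 4.01 in place of 2.03 percentage points. The ratio of FOS family to JUN family RNA was 0.168, 0.170 and 0.175 in the CON libraries and 0.131, 0.127 and 0.136 after sTREM-1. The ratio was thus lower in every sTREM-1 library than in any CON library (two-sided exact permutation p = 0.1, the lowest reachable). The ratio of Fos to Jun RNA was 0.482 ± 0.0273 in the CON group and 0.290 ± 0.0127 after sTREM-1 (SD, n = 3 each), also without overlap.

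**Figure D3:**
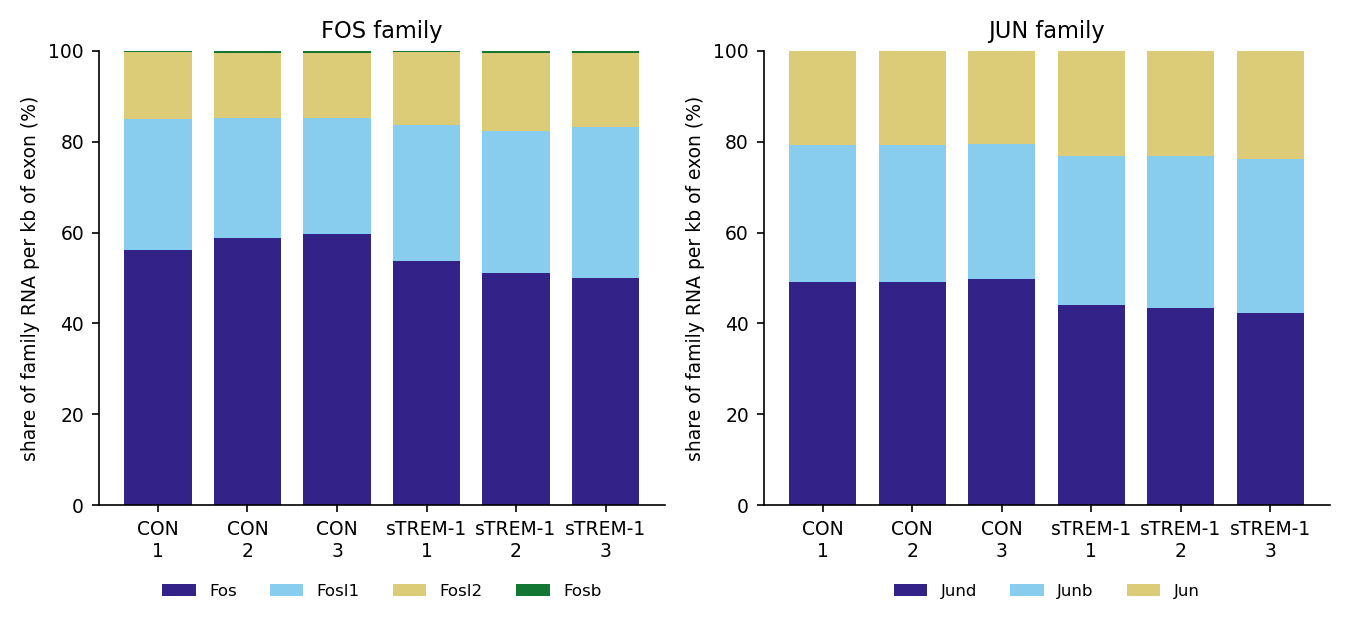
Share of each gene in the RNA of its family, as a percentage of the summed CPM per kilobase of exon, for the FOS family (left) and the JUN family (right) in each of the 6 libraries. The shares of Fos and Jund are smaller in all 3 sTREM-1 libraries than in the 3 CON libraries, and those of Fosl1, Fosl2, Jun and Junb are larger.

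Atf3, a stress-induced basic leucine-zipper gene that can repress inflammatory genes in macrophages, had the highest level of the 10 genes. Per kilobase of exon it was at 333 ± 9.14 CPM in the CON group and 320.4 ± 6.52 after sTREM-1 (SD, n = 3 each), and 99.3% of the tested genes had a lower level per kilobase. Atf3 had 739.9, 705 and 706 CPM in the CON libraries and 705, 678 and 687 CPM after sTREM-1. The highest sTREM-1 library lay between the CON libraries, and the groups overlapped. Its log2 fold change was -0.06 (95% confidence interval -0.10 to -0.01, edgeR adjusted p = 0.068). The call for Atf3 depended on the fit, and 7 of 13 alternatives put its adjusted p-value under 0.05, in a range of 0.017 to 0.400. The change was at most a few percent in all of them, with log2 fold changes between -0.07 and -0.03.

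Ier3, an early response gene whose product is known to modulate ERK signalling and cell survival, had 131, 135 and 135 CPM in the CON libraries and 147, 146 and 147 CPM after sTREM-1. The sTREM-1 libraries were nearly equal and all lay above the CON libraries. Ier3 rose by 9.81%, a log2 fold change of 0.14 (standard error 0.03, 95% confidence interval 0.08 to 0.19, edgeR adjusted p = 0.00052).

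The EGR genes encode zinc-finger factors that are induced by ERK signals and bind GC-rich elements. Egr1 was listed at 0 counts in all 6 libraries, where 3 counts would correspond to 0.066 to 0.076 CPM. Its neighbour Etf1 had between 17281 and 21734 counts, and Tnf and Aif1, which encode products that microglial cells are known to make, were also at 0 in all 6 libraries. The row of Egr1 therefore gives no level and no comparison. Egr2 was low, with 2.22, 2.36 and 2.23 CPM in the CON libraries and 2.17, 3.21 and 2.92 CPM after sTREM-1. One sTREM-1 library lay below the CON libraries and the others above them. The log2 fold change of Egr2 was 0.28, with a 95% confidence interval of -0.12 to 0.68, which at counts of 91 to 137 per library spans both directions (edgeR adjusted p = 0.31).

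By level per kilobase in the CON group, Atf3 was followed by Jund at 128 ± 2.90, Ier3 at 118 ± 2.24, Junb at 78.0 ± 2.37, Jun at 53.7 ± 1.65, Fos at 25.8 ± 0.805, Fosl1 at 11.99 ± 0.884, Fosl2 at 6.44 ± 0.166 and Egr2 at 0.669 ± 0.0237 CPM per kilobase (SD, n = 3 each). No neighbours in this order overlapped in their 3 CON libraries. After sTREM-1, Ier3 at 129.9 ± 0.482 was above Jund at 113 ± 3.10, so that these genes changed places in this measure. The order depended on exon length. In CPM not divided by length, Ier3 was below Jund in both groups, with means of 134 and 214 CPM in the CON group. After sTREM-1 the means of Ier3 and Jund were 147 and 188 CPM. Within a group the libraries were close. The coefficient of variation over the 3 libraries was between 1.89% and 7.37% in the CON group for the 9 genes with counts, and between 0.371% and 19.5% after sTREM-1, where Egr2 had the highest value. The SD within groups on the log2 scale was 0.06 for Fos, 0.11 for Fosl1 and 0.02 for Ier3, against medians of 0.05, 0.08 and 0.03 for the 300 tested genes nearest to each in level.

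Of 12 genes of other subunits that can join AP-1-type dimers, 11 were tested, 0 were called higher and 2 lower by edgeR, and the median log2 fold change was -0.07. The called share was 18.2%, beside 30.5% of all tested genes, of which 14.1% were called lower. Mafk, a small MAF protein, was at 44.9 ± 1.21 CPM in the CON group and fell to 35.7 ± 1.48 CPM (SD, n = 3 each) after sTREM-1, by -0.33 on the log2 scale (edgeR adjusted p = 2.4e-06). Without CON replicate 2, CON replicate 3, sTREM-1 replicate 1 or sTREM-1 replicate 3, the number of these subunits called was 1. The dimer partners Atf2, Jdp2, Batf and Batf3 had log2 fold changes of -0.06, -0.11, -0.07 and -0.14 and were not called, and neither was Fosb at -0.29. Jdp2 had an adjusted p of 0.071 and was called in 2 of 13 alternative fits, with adjusted p-values from 0.038 to 0.256.

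A wider list of immediate early genes held 28 symbols, of which 23 were tested, with 3 called higher and 11 called lower and a median log2 fold change of -0.14. The called share was 60.9%, against 30.5% of all tested genes, in a list chosen with earlier results of these data known. Without sTREM-1 replicate 3 the number called was 9 in place of 14. Calls over all genes also fell in that fit, to 3775 from 4312. Nr4a1, which encodes the nuclear receptor NUR77, was at 13.2 ± 0.991 CPM in the CON group and fell to 8.94 ± 0.120 CPM (SD, n = 3 each) after sTREM-1, with a log2 fold change of -0.56 (edgeR adjusted p = 1.1e-05). Nr4a2 had a log2 fold change of -0.58 and was not called without sTREM-1 replicate 3, and Egr3 had one of -0.44 and was not called without CON replicate 3 or sTREM-1 replicate 3. Both genes were low, with means of 3.93 and 5.59 CPM in the CON group and 2.61 and 4.11 CPM after sTREM-1. Their adjusted p-values ran from 0.006 to 0.076 and from 0.009 to 0.082 over 13 alternative fits. Gadd45b, a stress-induced regulator of MAP kinase signals, fell with a log2 fold change of -0.42, and its level was 87.7 ± 3.99 CPM in the CON group and 65.4 ± 1.02 CPM in the sTREM-1 group (SD, n = 3 each). The 3 that rose were Zfp36, Plk2 and Mcl1, which were picked for naming after their values were seen, with log2 fold changes of 0.15, 0.07 and 0.07. Plk2 lost its call without CON replicate 2 or sTREM-1 replicate 3, with adjusted p-values from 0.001 to 0.071 over 13 alternative fits. For Mcl1 the groups overlapped, and its call was lost without CON replicate 1, CON replicate 3 or sTREM-1 replicate 2, among 5 of 13 alternative fits, with adjusted p-values from 0.001 to 0.200.

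Among kinases and transcription factors that drive immediate early promoters, 27 genes were tested, of which 4 were higher and 2 lower, a called share of 22.2% beside 30.5% of all tested genes. Map2k1, which encodes the ERK kinase MEK1, rose with a log2 fold change of 0.25 (edgeR adjusted p = 2.7e-07). Mapk9, which encodes the JUN kinase JNK2, rose with a log2 fold change of 0.20, its CON level being 74.6 ± 1.59 CPM and its sTREM-1 level 85.8 ± 0.970 CPM (SD, n = 3 each). Map2k3, a kinase upstream of p38, fell with a log2 fold change of -0.33. Of the serum response factor gene Srf and the genes of its ELK cofactors, Elk3 fell with a log2 fold change of -0.17 (edgeR adjusted p = 0.026), while Srf, Elk1 and Elk4 were at 0.06, 0.08 and 0.08 and were not called. Elk3 lost its call without CON replicate 1, CON replicate 3 or sTREM-1 replicate 2, with adjusted p-values from 0.014 to 0.177 over 13 alternative fits. Creb1, whose protein binds the cyclic AMP response element, was at -0.04 and was not called. These 5 genes were picked for naming after their values were seen.

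Of 13 tested corepressors, MAP kinase phosphatases and JUN turnover genes, 3 were higher and 1 was lower, a called share of 30.8% beside 30.5% of all tested genes. Dusp2, a nuclear MAP kinase phosphatase that is itself an early response gene, had 26.8 ± 0.741 CPM in the CON group and 15.3 ± 0.857 CPM after sTREM-1 (SD, n = 3 each). It fell with a log2 fold change of -0.81 (edgeR adjusted p = 6.3e-11), beside -0.55 for Fos. Nab2, a corepressor of EGR proteins, rose with a log2 fold change of 0.23 and was not called without CON replicate 3. Dusp6, a phosphatase of ERK, and Dusp16, a phosphatase of JNK, had log2 fold changes of 0.15 and 0.14, and lost their calls without CON replicate 2 or sTREM-1 replicate 3, and without CON replicate 1, sTREM-1 replicate 2 or sTREM-1 replicate 3. The adjusted p-values of Nab2, Dusp6 and Dusp16 were at most 0.076, 0.093 and 0.092 over 13 alternative fits, and at least 0.005, 0.009 and 0.008.

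Genes known to respond to AP-1 through sites in their promoters moved in both directions. Of 20 tested, 6 were higher and 8 lower, a called share of 70% beside 30.5% of all tested genes, with a median log2 fold change of -0.11. This list was chosen with earlier results of these data known, and its share was not compared with that of genes of like level. At high levels very small changes were called, such as Spp1 at 20636 CPM in the CON group with a log2 fold change of 0.05. Il6 and Ptgs2, the genes of the cytokine interleukin-6 and of the prostaglandin synthase COX-2, fell with log2 fold changes of -0.66 and -0.49 (edgeR adjusted p = 2.8e-10 and adjusted p = 1.8e-15). Ptgs2 averaged 679 CPM over the CON libraries and 483 CPM after sTREM-1, with SDs of 21.04 and 14.5 CPM (n = 3 each). Mmp13, a collagenase gene, fell with a log2 fold change of -0.46 at a low level, with means of 6.46 CPM in the CON group and 4.70 CPM after sTREM-1. Gclm, which encodes a subunit of the enzyme that makes the glutathione precursor, rose with a log2 fold change of 0.48, its CON level being 47.8 ± 1.35 CPM and its sTREM-1 level 66.9 ± 2.65 CPM (SD, n = 3 each). These genes have regulators other than AP-1, whose part in the changes was not tested.

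**Figure D4:**
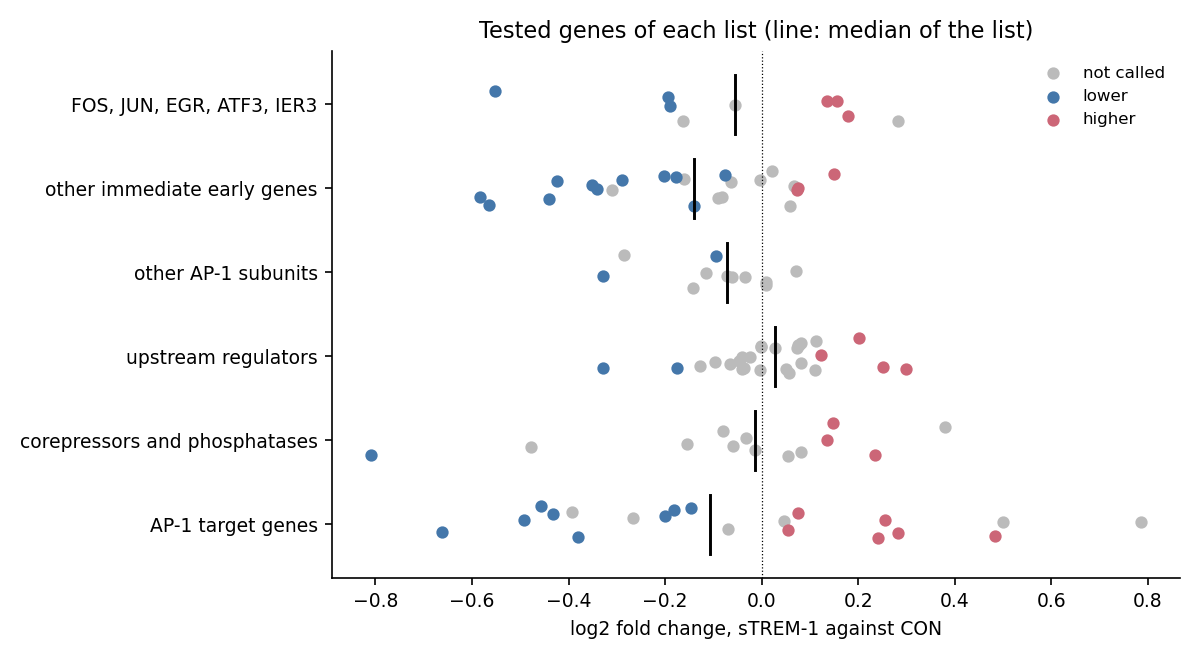
Log2 fold change, sTREM-1 against CON, of the tested genes of 6 lists, each point a gene, coloured by its call at an adjusted p-value under 0.05, with the median of each list as a vertical line; points are spread vertically for legibility. The medians run from -0.14 for the other immediate early genes to 0.03 for the upstream regulators, and each of the 6 lists holds genes called lower.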

How the data were processed

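The authors checked reads with FastQC, quantified them with RSEM and deposited counts, 1 row per gene symbol, as whole numbers that were not normalized. The submitters' processing notes name HISAT2 2.0.4 and the human builds hg19 and GRCh38 for these mouse samples, with no role given. The mouse build, the annotation and the use of strand are not given in the sources used here. For all 6 libraries, genes were kept by edgeR's filterByExpr at a minimum count of 10. After TMM scaling, a quasi-likelihood model without covariates was fitted (edgeR 4.0.16, R 4.3.3). An adjusted p-value under 0.05 was a call. The standard error is the log2 fold change divided by the square root of F, and log2 CPM used a prior count of 2. Exon lengths came from GENCODE M21, and promoter sequences from RefSeq for GRCm38.p6. The procedure was tested on simulated data.

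The genes and lists were chosen with earlier results of these data known. From each other list, up to 4 genes with the largest absolute log2 fold change among those called and without overlap were named, with Fosb, Atf2, Jdp2, Batf and Batf3. A few of the genes so selected are not reported here. Within groups, chi-square per gene between libraries was 3.45 to 4.99, above sampling noise. Alternatives were DESeq2 1.42.0 and its size factors, library totals, limma 3.58.1 voom, no filter, a replicate block, a 1.2-fold minimum and leaving out each library. A loess correction for GC content and length (span 0.3, covering 90.7% of tested genes) was added after the data were seen, as were family sums without division by length. Family shares were also computed without that division.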

Additional observations from a re-analysis of the deposited data

How the results depend on the processing

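The 6 calls among the AP-1 and immediate early genes kept their direction and stayed under an adjusted p-value of 0.05 in all 13 alternative fits. Requiring a 1.2-fold change too, calls numbered 1517 of the 14120 tested genes, which is 10.7%. Of the 9 tested members 1 was called, 0 higher and 1 lower. In the other lists that criterion left 1 of 11 tested AP-1 subunits, 7 of 23 immediate early genes and 2 of 27 upstream regulators. It also left 1 of 13 corepressors and phosphatases and 7 of 20 AP-1 target genes. With library totals in place of TMM, 5 members were called lower, since Fosl1 and Atf3 passed the threshold. Without each library in turn, between 3608 and 3863 of all genes were called, fewer than the 4312 of the main fit. Between 1 and 2 other AP-1 subunits and between 9 and 13 other immediate early genes were called in these fits. The difference in the Fosb share of FOS family RNA ran from -0.014 to 0.089 percentage points, so that its direction reversed. A replicate block in the fit gave calls for 4613 genes and 7 members, the added member being Atf3. The labels only number the replicates, and across genes the deviations of CON and sTREM-1 libraries with equal numbers had correlations of -0.018, -0.033 and -0.014, no sign of pairing. Over all alternatives, single-gene results of the members stayed on their side of the threshold 108 times, gained a call 9 times and lost 0. For the genes selected from the other lists these were 378, 2 and 23. What caused these shifts was not tested. Family shares and ratios taken from CPM not divided by length kept their directions. Counts were lowest for Fosb and Egr2 among the family and member genes tested.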
